A study of Mus musculus with 8 samples.

Results

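Complement, coagulation and fibrinolysis genes were followed in kidneys of control and cisplatin-treated mice. The genes were chosen by name, as protein-coding rows of the deposited count table with 8 values whose symbol matched a fixed pattern for complement components, clotting factors, their receptors and regulators, and the plasminogen activators. This gave 27 genes of the 35880 rows that could be used. Of these, 25 belong to the cascades, and C1qbp, a mostly mitochondrial protein, and Proca1 matched by their letters only. Another 36 protein-coding rows matched the pattern but held 10 values where the header names 8 libraries, so they were not used. They include Fga, Fgg, F3, Thbd, Pros1, Vwf, C1qa, C1qc, Cfb and Plg, and nothing is said here about these genes.

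The study compared 4 kidneys of wild-type mice given saline (control 1, 2, 3 and 5, numbered as in the labels) with 4 kidneys of wild-type mice given cisplatin (cisplatin 1, 3, 4 and 6), collected 72 h after injection. Cisplatin is a platinum-based cancer drug whose main target in the kidney is the proximal tubule. The study's methods describe male C57/BL6J mice and an intraperitoneal injection. Poly(A) RNA of whole kidney tissue was sequenced, and raw read counts per gene were deposited.

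Complement is a set of plasma and cell-surface proteins in which the classical, lectin and alternative pathways converge on cleavage of C3 and end in a membrane attack complex. Coagulation ends in thrombin, which turns fibrinogen into fibrin and also signals through protease-activated receptors. Plasmin, released from plasminogen by the urokinase-type and tissue-type activators, dissolves fibrin. The liver makes most of the circulating proteins of these systems, and kidney cells also transcribe several of them.

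Over the rows used, total counts per library ranged from 10953338 to 16701599, and 3 counts, taken as the smallest measurable level, corresponded to between 0.136 and 0.266 CPM after normalization (CPM are counts scaled to a common library size, here with TMM factors, a scaling that leaves out genes with extreme ratios). This level covers counting error only. Proximal tubule markers, 12 in number, summed to between 30845.6 and 39528.2 CPM in the controls and between 1339.1 and 3281.9 CPM after cisplatin, and all 12 fell. Along the second principal component (15.96% of the variance) control 5, cisplatin 4 and cisplatin 6 separated from the other libraries. They are called the second library set, and the other 5 the first. Cisplatin 1 and cisplatin 3 had at most 3 counts of the Y-linked genes Kdm5d and Eif2s3y, where the other 6 libraries had at least 274, although the methods describe male mice. They are also the cisplatin libraries of the first set. Within the cisplatin group, library set and the lack of Y-linked counts therefore cannot be told apart. Fits without them keep only second-set cisplatin libraries, against controls of both sets.

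Of the 27 genes, 21 passed the expression filter of edgeR and were tested. Rising genes outnumbered falling ones. Calls needed an adjusted p under 0.05 together with a log2 fold change of 1 or more in size. By this rule 9 members rose (Fgb, Plaur, C3, C6, C4bp, Plat, F2rl1, Masp2 and C5ar1) and 2 fell (Proc and C4b). The 9 rising members are 42.9% of those tested, beside 19.2% of all 9141 genes tested. The 2 falling members are 9.52%, beside 15.7% of all genes. The median log2 fold change was 0.68 over the tested members and 0.08 over all genes tested. With no expression filter the order turned, with a median of 0.18 over the members and 0.39 over all genes. C4bp and C6 stayed called with no expression filter (edgeR adjusted p = 7.01e-05 and 0.000326), but their control counts were low. C4bp had 2, 7, 3 and 4 counts in control 1, 2, 3 and 5, and C6 had 6, 12, 3 and 4. A stricter filter, which kept genes with 10 counts or more per library, left both untested. Under that filter 7 of 17 members rose and 2 fell, beside 14.7% and 14.2% of all genes. Without cisplatin 1 and cisplatin 3, the libraries that lack Y-linked counts, 8 members rose and 2 fell, beside 21.4% and 20.5% of all genes. Within the first library set alone the counts were also 8 and 2, beside 17.6% and 16.3%. Scaling by total library size gave 11 rising and 2 falling members, beside 34.7% and 8.78% of all genes, and moved the median of all genes from 0.08 to 0.64.

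**Figure D1:**
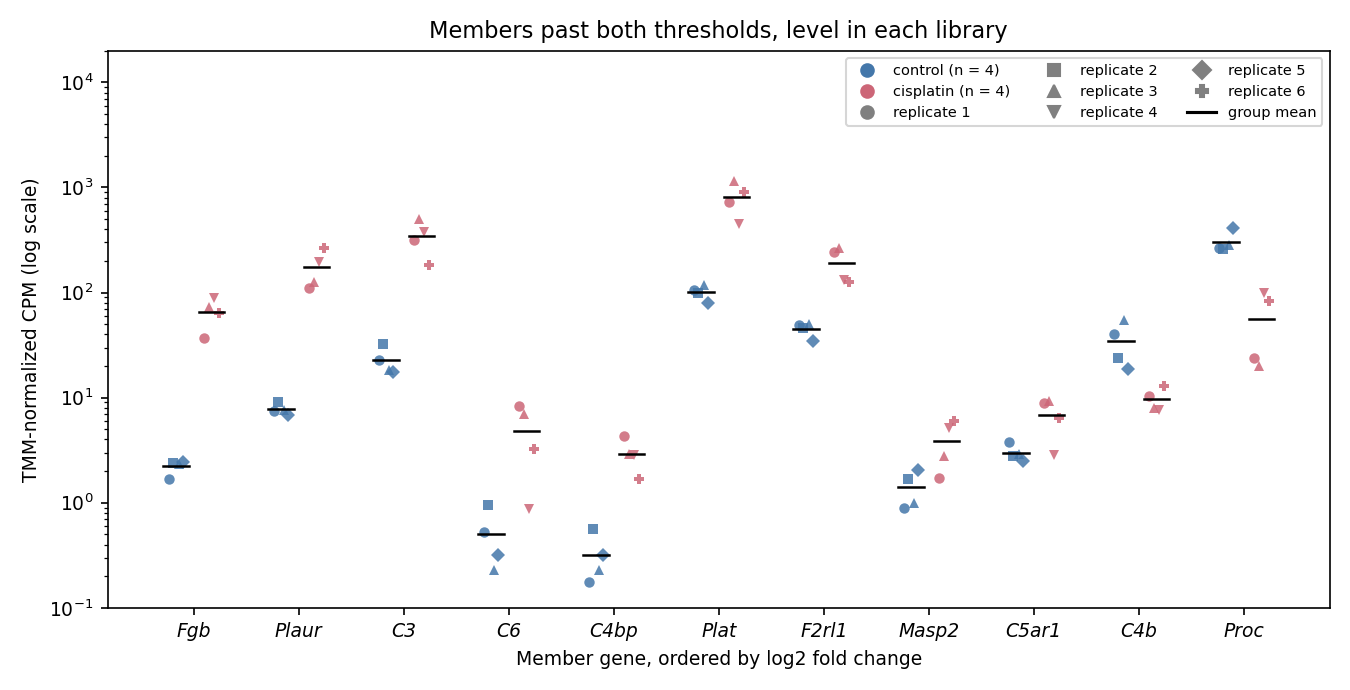
TMM-normalized CPM (log scale) of the 11 members past both thresholds, 1 point per library (control, blue, cisplatin, red, 4 libraries each), with the group mean as a bar. The groups lie apart for 8 of the 11 genes and overlap for C6, Masp2 and C5ar1.

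The 4 rising members with the highest fold changes and no overlap between the groups were Fgb, Plaur, C3 and C4bp. C6 had a higher log2 fold change than C4bp (3.26 against 3.17), but its groups overlapped. The promoters of Fgb, Plaur, C3 and C4bp are shown, from 250 bases before to 50 bases after the start site, as given by RefSeq on GRCm38.p6. Of the 27 members, 18 had a promoter in that table. Each window was searched on both strands for TGAGTCA (the AP-1 motif), TTGCNNAA (C/EBP), TTCNNNGAA (STAT) and TATAAA (the TATA box letters), and matches are in capitals.
Fgb (chr3:83049814-83050113, minus strand): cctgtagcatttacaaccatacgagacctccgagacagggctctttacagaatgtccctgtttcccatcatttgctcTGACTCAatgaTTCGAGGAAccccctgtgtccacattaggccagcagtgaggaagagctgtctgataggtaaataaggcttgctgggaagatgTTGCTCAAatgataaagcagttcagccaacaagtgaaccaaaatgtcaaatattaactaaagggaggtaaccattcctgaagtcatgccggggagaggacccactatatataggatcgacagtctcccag
Plaur (chr7:24462233-24462532, plus strand): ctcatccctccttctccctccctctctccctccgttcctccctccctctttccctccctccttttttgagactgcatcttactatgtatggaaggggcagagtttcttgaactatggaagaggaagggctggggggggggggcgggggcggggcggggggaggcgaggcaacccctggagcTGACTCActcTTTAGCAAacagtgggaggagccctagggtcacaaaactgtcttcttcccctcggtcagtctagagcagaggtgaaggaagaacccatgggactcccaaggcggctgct
C3 (chr17:57228087-57228386, minus strand): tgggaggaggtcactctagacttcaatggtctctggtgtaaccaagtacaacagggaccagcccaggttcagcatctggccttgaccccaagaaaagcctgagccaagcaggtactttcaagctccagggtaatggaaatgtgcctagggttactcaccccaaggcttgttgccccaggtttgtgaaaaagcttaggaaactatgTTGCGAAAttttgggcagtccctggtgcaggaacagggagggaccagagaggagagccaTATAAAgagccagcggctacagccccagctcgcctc
C4bp (chr1:130661569-130661868, minus strand): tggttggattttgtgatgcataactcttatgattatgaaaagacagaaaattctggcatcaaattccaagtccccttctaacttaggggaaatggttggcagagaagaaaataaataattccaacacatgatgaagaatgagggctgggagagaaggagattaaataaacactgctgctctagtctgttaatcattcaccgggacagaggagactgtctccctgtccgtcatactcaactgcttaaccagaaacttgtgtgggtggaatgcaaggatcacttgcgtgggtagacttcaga
The Fgb window held an AP-1, a STAT and a C/EBP match, the Plaur window an AP-1 and a C/EBP match on the minus strand, and the C3 window a C/EBP match before the start site and TATAAA after it. The C4bp window held none of these letters. None of these matches overlapped another. Among all 32851 promoters of this length in the table, 5.2% held the AP-1 letters, 10.8% those of C/EBP, 8.3% those of STAT and 13.6% TATAAA. Members that were not called also held such letters, with AP-1 in C1qbp and C3ar1, TATAAA in C3ar1, and C/EBP and STAT in C1ra. The untested F9 and F11 held those of C/EBP, and F9 also those of STAT. Among the other rising members with a promoter in that table, Masp2 held a STAT match, and C6 and C5ar1 held none of these letters. A match describes the letters and is not a binding site.

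Among the genes of plasminogen activation, the receptor and the tissue-type activator rose while urokinase itself did not pass the test. Plaur encodes the urokinase receptor, which holds urokinase on the cell surface (ENSMUSG00000046223, GRCm38 chromosome 7 from 24462484 to 24475968). Its level was 7.44, 9.01, 7.58 and 6.84 CPM in control 1, 2, 3 and 5 and 110, 126, 195 and 266 CPM in cisplatin 1, 3, 4 and 6. Every cisplatin-treated kidney lay far above every control. Within the cisplatin group the second library set held the higher values, while control 5, also of that set, was the lowest control. Plaur had a log2 fold change of 4.49 (SE 0.31, edgeR adjusted p = 5.91e-06), from 7.72 ± 0.921 to 174 ± 71.5 CPM (SD, n = 4 each).

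Plat encodes tissue-type plasminogen activator (ENSMUSG00000031538, chromosome 8 from 22757727 to 22782844). It measured 105, 98.4, 118 and 80.4 CPM in control 1, 2, 3 and 5 and 735, 1149.6, 454 and 913 CPM in cisplatin 1, 3, 4 and 6. The lowest cisplatin value was still well above the highest control. Plat rose from 100 ± 15.6 to 813 ± 293 CPM (SD, n = 4 each), equal to 3.02 ± 0.29 in log2 units (SE, edgeR adjusted p = 3.79e-05). Endothelial cells are a known source of this activator. Of 12 endothelial markers, 5 had values and none passed both thresholds. All 5 had log2 fold changes under 0, with a median of -0.55. In Kdr (-0.94, edgeR adjusted p = 0.0152) every cisplatin-treated kidney lay below every control. Their summed level ranged from 499 to 738 CPM in controls and from 271 to 639 CPM after cisplatin. The part of endothelial content in Plat was not tested.

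Plau encodes urokinase (ENSMUSG00000021822, chromosome 14 from 20836660 to 20843385). Its level was 851, 1056.4, 673 and 1140.3 CPM in the controls and 910, 728, 717 and 916 CPM in cisplatin 1, 3, 4 and 6. The groups overlapped throughout. Plau had a log2 fold change of -0.19 (SE 0.21, edgeR adjusted p = 0.483), and it was 0.38 when libraries were scaled by their total count alone. Per kilobase of gene length, Plau was the highest of the 27 members in both groups, at 393 ± 88.7 CPM per kilobase in controls and 345 ± 46.6 after cisplatin (SD, n = 4 each). Plat went from the seventh place at 16.1 ± 2.51 CPM per kilobase to the second at 130 ± 47, and Plaur from the twelfth at 2.95 ± 0.352 to the fifth at 66.6 ± 27.3 (SD, n = 4 each). The ratio of Plaur to Plau on this scale lay between 0.00543 and 0.0102 in controls and between 0.109 and 0.263 after cisplatin.

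**Figure D2:**
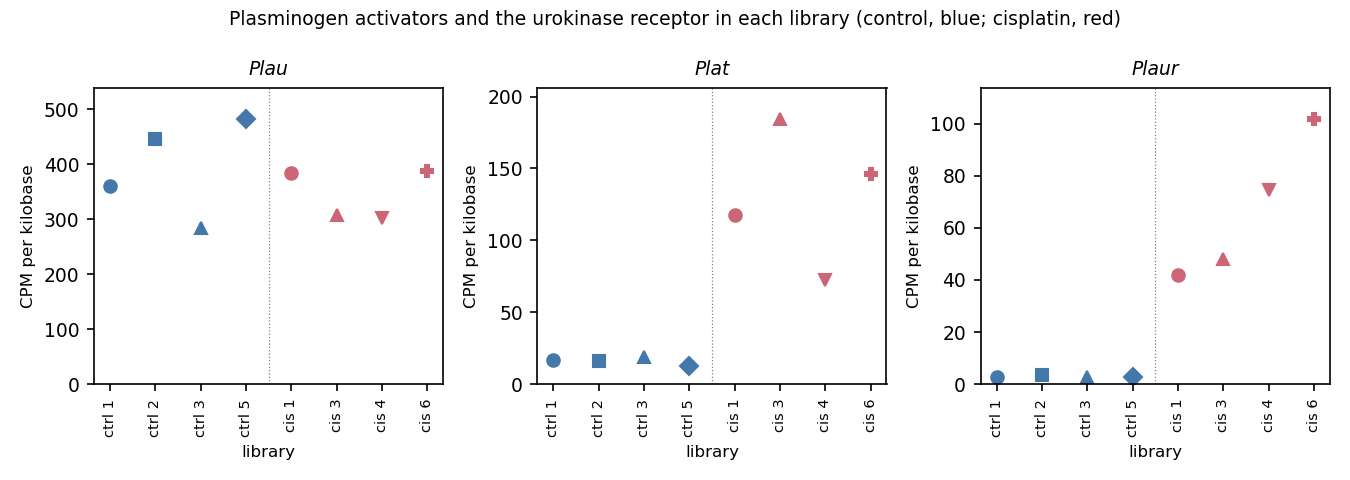
CPM per kilobase of gene length (linear axes that start at 0 and differ between panels) for Plau, Plat and Plaur in each of the 4 control (blue) and 4 cisplatin (red) libraries. Plau overlaps between the groups, while Plat and Plaur lie above the controls in every cisplatin library.

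On the clotting side, fibrinogen beta chain and a protease-activated receptor rose and protein C fell. The 4 clotting factors that could be read (F2, F9, F10 and F11) were near or under the measurable level. Rows of F5, F7, F8, F12 and Vwf held 10 values and were not used. Fgb encodes the beta chain of fibrinogen (ENSMUSG00000033831, chromosome 3 from 83040141 to 83049863) and had the highest log2 fold change among the members. Its level was 1.68, 2.39, 2.35 and 2.44 CPM in control 1, 2, 3 and 5 and 36.7, 73.5, 88 and 63.6 CPM in cisplatin 1, 3, 4 and 6. All 4 cisplatin-treated kidneys lay above all controls. Fgb rose from 2.22 ± 0.357 to 65.5 ± 21.6 CPM (SD, n = 4 each), equal to 4.87 ± 0.31 in log2 units (SE, edgeR adjusted p = 3.38e-06).

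Fibrinogen is mainly a liver product, so hepatocyte markers were read beside it. Of 12, 6 had values, of which Cyp2e1, Alb and Apoa2 fell, Hpx rose and Apob and Apoa1 did not pass. The sum of these 6 ranged from 2733.0 to 3337.6 CPM in controls and from 28.8 to 514 CPM after cisplatin. In controls most of it was Cyp2e1, which the kidney also transcribes. Alb, the defining hepatocyte product, was at 9.64 ± 2.14 CPM in controls and 1.95 ± 1.45 CPM after cisplatin (SD, n = 4 each). The part of hepatocyte RNA in Fgb was not tested.

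F2rl1 encodes protease-activated receptor 2, a receptor cut by trypsin-like proteases (ENSMUSG00000021678, chromosome 13 from 95511732 to 95525227). Its level was 49, 46.1, 50.2 and 34.9 CPM in the controls and 243, 266, 132 and 127 CPM in cisplatin 1, 3, 4 and 6. The groups did not overlap, and the first library set held the higher cisplatin values. F2rl1 had a log2 fold change of 2.09 (SE 0.28, edgeR adjusted p = 0.00024), from 45 ± 6.97 to 192 ± 72.9 CPM (SD, n = 4 each).

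Proc encodes protein C, the zymogen of an anticoagulant protease that inactivates clotting cofactors (ENSMUSG00000024386, chromosome 18 from 32123129 to 32139570). In controls it was abundant for a gene best known from liver, at 263, 260, 286 and 412 CPM. After cisplatin it measured 23.9, 20.1, 98.7 and 83.6 CPM in cisplatin 1, 3, 4 and 6. All cisplatin-treated kidneys lay below all controls. The lowest values were in the 2 libraries that lack Y-linked counts, which are also the cisplatin libraries of the first set. Proc fell by 2.43 on the log2 scale (SE 0.51, edgeR adjusted p = 0.00321), from 305 ± 72.3 to 56.6 ± 40.4 CPM (SD, n = 4 each). Without cisplatin 1 and cisplatin 3 the log2 fold change was -1.73. The proximal tubule markers fell in the same kidneys, as given above, and their part in the fall of Proc was not tested. In bulk tissue, fewer cells of a type and less RNA per cell cannot be told apart.

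Prothrombin (F2), the precursor of thrombin, was barely measured. Its level was 0.974, 1.68, 0 and 0.865 CPM in controls and 0.637, 0.11, 2.05 and 0.872 CPM after cisplatin. The log2 fold change of F2 was 0.03 (SE 0.91, edgeR adjusted p = 0.982), too imprecise to read a direction. Fgl1, a fibrinogen-like secreted protein, was also low, from 0.62 to 2.04 CPM in controls and from 1.03 to 2 CPM after cisplatin, a difference of -0.09 ± 0.40 in log2 units (SE, edgeR adjusted p = 0.874). Factors X, XI and IX (F10, F11 and F9) did not pass the expression filter. F10 had 41 counts over the 4 controls, 24 of them in control 5, and 20 over the 4 cisplatin-treated kidneys. F11 had 1 and 3 counts in the groups and F9 had 2 and 0, which is at or under 3 counts.

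Among the complement genes, C3, C4bp, C6, Masp2 and C5ar1 rose and C4b fell. Of 14 complement members, 11 were tested, of which 5 rose, 1 fell and 5 did not pass, beside 19.2% of all genes rising and 15.7% falling. C3 is the central component on which the pathways converge (ENSMUSG00000024164, chromosome 17 from 57203970 to 57228136). Its level was 23, 32.5, 18.5 and 17.6 CPM in control 1, 2, 3 and 5 and 318, 505, 375 and 181 CPM in cisplatin 1, 3, 4 and 6. Even the lowest cisplatin value was several times the highest control. C3 rose from 22.9 ± 6.8 to 345 ± 135 CPM (SD, n = 4 each), equal to 3.91 ± 0.35 in log2 units (SE, edgeR adjusted p = 2.47e-05). Per kilobase it went from the tenth to the fourth place among the members, from 4.45 ± 1.32 to 67.1 ± 26.2 CPM per kilobase (SD, n = 4 each).

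C4b encodes C4, which the classical and lectin pathways cleave on the way to C3 (ENSMUSG00000073418, chromosome 17 from 34728380 to 34743882). It measured 40.2, 24.1, 54.7 and 18.9 CPM in the controls and 10.3, 7.97, 7.69 and 12.8 CPM after cisplatin. The groups did not overlap, although control 5 lay close to cisplatin 6. C4b fell by 1.83 on the log2 scale (SE 0.34, edgeR adjusted p = 0.00183), from 34.5 ± 16.2 to 9.7 ± 2.4 CPM (SD, n = 4 each). The close copy C4a, at 2.68 ± 1.23 and 3 ± 1.29 CPM (SD, n = 4 each), could share reads with C4b, so their split is uncertain. C3 and C4b, which act in sequence, thus changed in opposite directions, and the ratio of C3 to C4b per kilobase ranged from 0.375 to 1.49 in controls and from 15.6 to 70.2 after cisplatin.

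The recognition subunit and the first protease of the classical pathway did not pass the test. C1qb, a chain of the recognition molecule C1q made largely by macrophages, ranged from 25.2 to 43.2 CPM in controls and from 24.5 to 43.6 CPM after cisplatin, a difference of 0.12 ± 0.23 in log2 units (SE, edgeR adjusted p = 0.696). Of 12 macrophage markers 7 had values, of which Cd14 rose, Cx3cr1 and Ms4a7 fell and 4 did not pass. C1ra, a serine protease bound to C1q, ranged from 25.8 to 48.4 CPM in controls and from 18.6 to 57.7 CPM after cisplatin (log2 fold change 0.20 ± 0.34 SE, edgeR adjusted p = 0.653). Its near copy C1rb had a row with 10 values and was not used, and reads could have been split between them.

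Masp1 and Masp2 encode the proteases of the lectin pathway, which start the cascade when sugar-binding proteins attach. Masp2 (ENSMUSG00000028979, chromosome 4 from 148602554 to 148615499) measured 0.886, 1.68, 0.986 and 2.04 CPM in controls and 1.73, 2.8, 5.12 and 5.95 CPM in cisplatin 1, 3, 4 and 6. Cisplatin 1 lay within the range of the controls. Masp2 had a log2 fold change of 1.46 (SE 0.46, edgeR adjusted p = 0.0248). This call was lost without control 1 (log2 fold change 1.29, adjusted p = 0.0717), control 3 (1.31, 0.0716), cisplatin 4 (1.29, 0.0604) or cisplatin 6 (1.19, 0.0695), all from edgeR, and within the first library set (0.87, 0.105). Tardbp overlaps Masp2 on the opposite strand, and whether reads were counted by strand is not given in the sources used here. Masp1 ranged from 1.44 to 5.31 CPM in controls and from 3.37 to 9.01 CPM after cisplatin (log2 fold change 0.68 ± 0.46 SE, edgeR adjusted p = 0.246). Rtp4, which overlaps Masp1 on the opposite strand, was at 29.5 ± 20.7 and 46.8 ± 20.5 CPM (SD, n = 4 each).

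**Figure D3:**
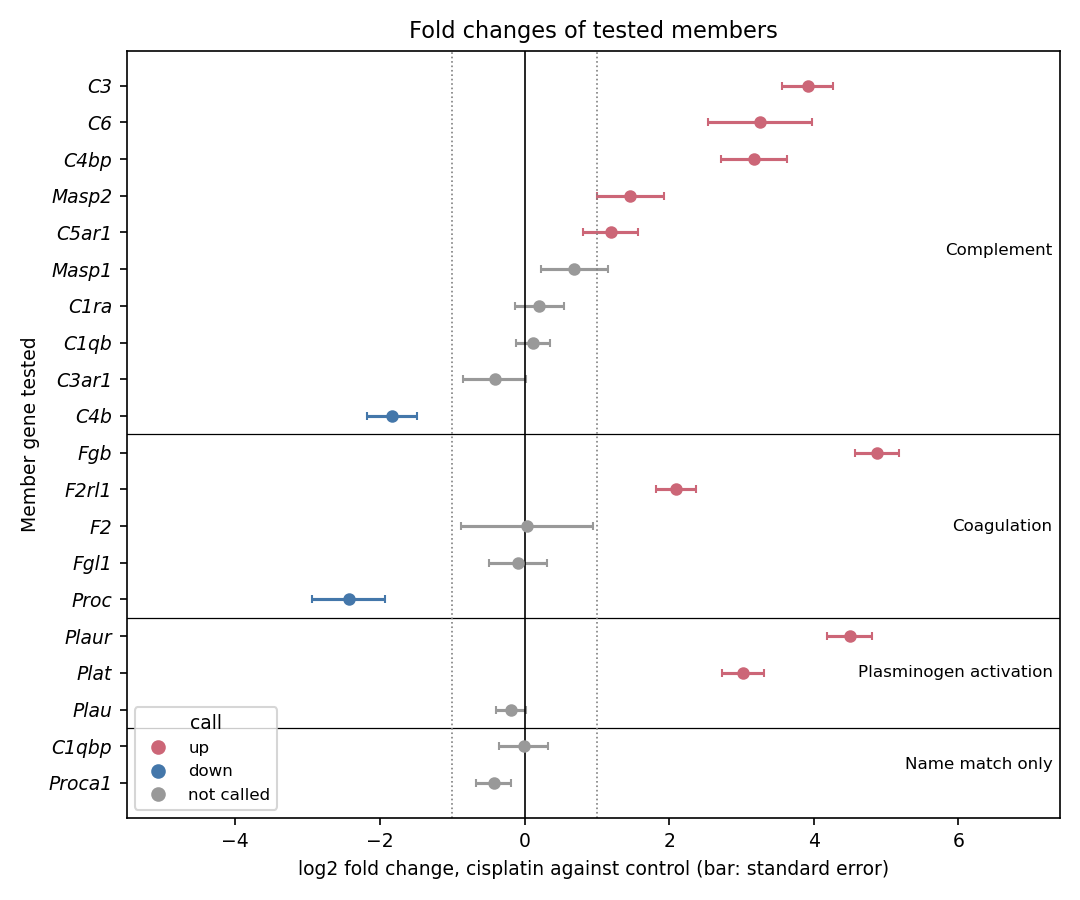
Log2 fold change of cisplatin against control (x axis) for 20 of the 21 tested members (y axis), grouped into complement, coagulation, plasminogen activation and name match only, with standard errors from edgeR as bars and dotted lines at -1 and 1. Points are coloured by call, up, down or not called, and the range is from -2.43 for Proc to 4.87 for Fgb.

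Among the terminal components, C6 was higher after cisplatin in a way that differed between libraries. C6 joins the membrane attack complex after C5 is cleaved (ENSMUSG00000022181, chromosome 15 from 4727175 to 4814967). It measured 0.531, 0.957, 0.228 and 0.315 CPM in controls and 8.28, 7.04, 0.878 and 3.25 CPM in cisplatin 1, 3, 4 and 6. Cisplatin 4 lay within the control range, below control 2, and the other 3 lay above all controls. C6 rose from 0.508 ± 0.326 to 4.86 ± 3.41 CPM (SD, n = 4 each), equal to 3.26 ± 0.72 in log2 units (SE, edgeR adjusted p = 0.00435). It remained called, at a log2 fold change of 2.0, without cisplatin 1 and cisplatin 3 (edgeR adjusted p = 0.0361). C8b, a later component, had 5 counts over the controls and 0 over the cisplatin-treated kidneys and was not tested.

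Among the soluble regulators, C4b-binding protein rose. C4bp encodes C4b-binding protein, a cofactor for the inactivation of C4b (ENSMUSG00000026405, chromosome 1 from 130634773 to 130661632). It measured 0.177, 0.558, 0.228 and 0.315 CPM in controls, under or close to the measurable level, and 4.32, 2.91, 2.86 and 1.67 CPM in cisplatin 1, 3, 4 and 6. The groups lay fully apart. The rise was from 0.319 ± 0.169 to 2.94 ± 1.09 CPM (SD, n = 4 each), equal to 3.17 ± 0.46 in log2 units (SE, edgeR adjusted p = 0.000393), in the same kidneys in which C4b fell.

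C1ra, Masp1 and C6, picked after their values were seen, were set beside the fibroblast and mural markers. Of 8 such markers, 3 had values, the collagen genes Col1a1, Col1a2 and Col3a1, and all 3 rose. Their sum was 252, 234, 70.4 and 117 CPM in control 1, 2, 3 and 5 and 1569.2, 1373.5, 341 and 1021.3 CPM in cisplatin 1, 3, 4 and 6. Control 1 and control 2 were highest among controls, and cisplatin 4 lowest among cisplatin-treated kidneys, for the collagen sum and for each of these 3 members. This order was not particular to the collagen genes. The endothelial sum had it too, at 738, 700, 664 and 499 CPM in controls and 590, 519, 271 and 639 CPM in cisplatin 1, 3, 4 and 6. The podocyte sum did not, being highest among controls in control 3 (743 CPM). The part of fibroblast or endothelial content in C1ra, Masp1 and C6 was not tested.

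**Figure D4:**
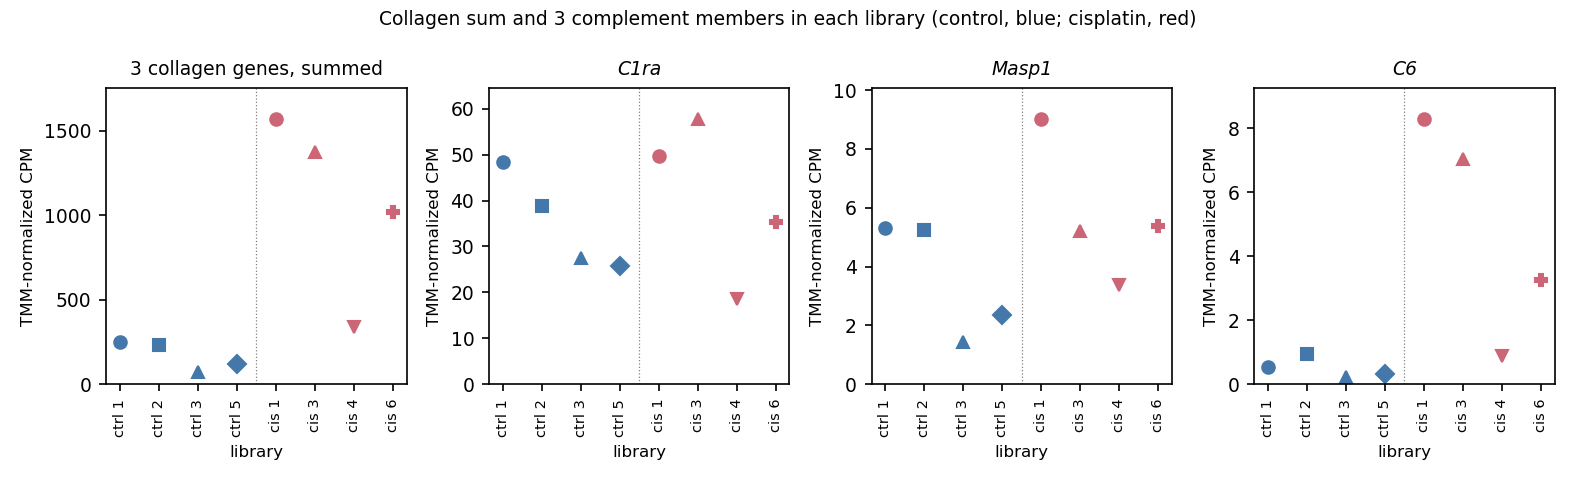
TMM-normalized CPM in each library (linear axes from 0 that differ between panels) for the sum of Col1a1, Col1a2 and Col3a1 and for C1ra, Masp1 and C6, with controls in blue and cisplatin in red. Control 1 and control 2 lie above the other controls and cisplatin 4 below the other cisplatin libraries in every panel.

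The receptors for the anaphylatoxins, small fragments of C3 and C5 that attract and activate leukocytes, gave a weak result. C5ar1, the C5a receptor of neutrophils and macrophages (ENSMUSG00000049130, chromosome 7 from 16246743 to 16259540), measured 3.81, 2.79, 2.88 and 2.52 CPM in controls and 8.82, 9.29, 2.86 and 6.34 CPM in cisplatin 1, 3, 4 and 6. Cisplatin 4 lay among the controls. C5ar1 had a log2 fold change of 1.19 (SE 0.38, edgeR adjusted p = 0.0248). The call was lost without control 2 (1.15, adjusted p = 0.0651), control 3 (1.16, 0.0652), control 5 (1.11, 0.0594), cisplatin 1 (1.03, 0.0606) or cisplatin 3 (0.98, 0.0639), and without both cisplatin libraries that lack Y-linked counts (0.62, 0.189), all from edgeR. C3ar1, the C3a receptor, ranged from 2.44 to 8.65 CPM in controls and from 2.86 to 5.55 CPM after cisplatin (log2 fold change -0.41 ± 0.43 SE, edgeR adjusted p = 0.457). Of 12 neutrophil markers 7 had values and 5 were tested. S100a8, S100a9, Cxcr2 and Retnlg rose. Csf3r did not pass (log2 fold change 0.91, edgeR adjusted p = 0.0205), although its groups did not overlap. Control levels of S100a8 (0.245 ± 0.254 CPM) and Retnlg (0.0972 ± 0.0738 CPM, SD, n = 4 each) were near or under the measurable level. The size of their rise is therefore uncertain. Mpo had no counts, and the summed level ranged from 4.07 to 6.21 CPM in controls and from 14.1 to 27.5 CPM after cisplatin. The part of leukocyte content in C5ar1 was not tested.

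Cfd, factor D, the protease that activates factor B and that fat cells secrete as adipsin, did not pass the filter. It had 128, 5, 0 and 0 counts in control 1, 2, 3 and 5 and 38, 4, 48 and 2 counts in cisplatin 1, 3, 4 and 6. Fat cell markers were looked up after these values were seen, and 5 of 8 had values. Adipoq (2.92 CPM), Plin1 (4.69 CPM) and Ucp1 (5.84 CPM) were highest among controls in control 1, as Cfd was, and highest among cisplatin-treated kidneys in cisplatin 4. Car3 and Cidec followed this only in part. Car3 was highest among controls in control 2 (171 CPM, against 74.7 CPM in control 1). Among cisplatin-treated kidneys it was highest in cisplatin 4 (5.42 CPM), and it fell after cisplatin. Cidec was highest among controls in control 1 (5.4 CPM). Among cisplatin-treated kidneys it was highest in cisplatin 6 (65.3 CPM, against 53.5 CPM in cisplatin 4), and it rose. The part of fat cell content in Cfd was not tested. The genes matched by letters only gave log2 fold changes of -0.01 for C1qbp (SE 0.34, edgeR adjusted p = 0.978) and -0.43 for Proca1 (0.24, 0.161), and both were above 0 when libraries were scaled by total count, as were Fgl1 and C3ar1.

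In 6 of the 21 tested members (Fgb, Plaur, C3, C4bp, Plat and F2rl1) all cisplatin-treated kidneys lay above all controls, and in 3 (Proc, C4b and Proca1) all lay below. Among all genes tested 23.7% lay wholly above and 22.5% wholly below.

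Within the cisplatin group, 13 of the 21 tested members did not overlap between cisplatin 1 and 3 on the one side and cisplatin 4 and 6 on the other, beside 72.8% of all genes tested. The members higher in cisplatin 1 and 3 were C1qb, C1ra, C3ar1, C4bp, C5ar1, C6, F2rl1 and Fgl1, and those lower were C1qbp, F2, Masp2, Plaur and Proc. These library pairs were set apart from the data, by the second principal component, so this is a description.

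Other genes of these systems were read from a list of 59 that does not overlap the members. Values were at hand for 33, and 26 were tested. Of these, 6 rose (23.1%) and 5 fell (19.2%), beside 19.2% and 15.7% of all genes, and the median log2 fold change was 0.05, beside 0.08. The shares and the median lie close to those of all genes, and the genes are given singly. Anxa2, a cell-surface protein that binds plasminogen and its tissue-type activator, rose from 58.7 ± 16.8 to 697 ± 44.8 CPM (SD, n = 4 each), equal to 3.57 ± 0.22 in log2 units (SE, edgeR adjusted p = 3.36e-06). Serpine2, an inhibitor of thrombin and of the plasminogen activators, rose from 29 ± 6.42 to 187 ± 50 CPM, and Itgb3, a chain of the fibrinogen and vitronectin receptors, from 2.75 ± 1.43 to 34.4 ± 13.7 CPM (SD, n = 4 each). In log2 terms they rose by 2.69 and 3.64 (adjusted p = 3.3e-05 and 0.00012 from edgeR).

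Clu encodes clusterin, which binds the terminal complex and is also a marker of injured tubules. It rose from 491 ± 81.9 to 5769.0 ± 2669.0 CPM (SD, n = 4 each), equal to 3.55 ± 0.36 in log2 units (SE, edgeR adjusted p = 4.97e-05). Itgam, the alpha chain of complement receptor 3, rose by a log2 fold change of 3.07 (adjusted p = 0.000144), while its partner chain Itgb2 gave -0.31 (adjusted p = 0.233), both from edgeR. Kng1, a kininogen, was the sixth to rise, at a log2 fold change of 1.65 (adjusted p = 0.0387 from edgeR) and with overlap between the groups.

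The 5 falling genes of this list came from both the clotting and the complement side. Serpinf2, which encodes alpha-2-antiplasmin, the chief inhibitor of plasmin, fell from 718 ± 133 to 23.2 ± 21.7 CPM (SD, n = 4 each), equal to -4.96 ± 0.77 in log2 units (SE, edgeR adjusted p = 0.000607). Hrg, a plasminogen-binding plasma glycoprotein, had a log2 fold change of -5.51 (adjusted p = 0.000743), Mbl1, a sugar-binding starter of the lectin pathway, -3.33 (0.00416), Cr2, a receptor for C3 fragments, -1.54 (0.0208) and Klkb1, plasma prekallikrein, -1.52 (0.031), all from edgeR. In each of these 5 genes every cisplatin-treated kidney lay below every control. Hrg went from 11 ± 4.7 to 0.27 ± 0.342 CPM and Mbl1 from 4.23 ± 2.13 to 0.438 ± 0.501 CPM (SD, n = 4 each). After cisplatin both were near or under the measurable level in most libraries, so the size of these fold changes is uncertain. Cd55, which speeds the decay of the enzyme that cleaves C3, was at 43 ± 14.7 and 42.7 ± 4.71 CPM (SD, n = 4 each), a difference of -0.01 ± 0.26 in log2 units (SE, edgeR adjusted p = 0.982).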

How the data were processed

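Groups and replicate numbers came from the sample titles. Per the labels and the paper, the authors used fastp on the reads and HISAT2 with GRCm38 for alignment. They deposited the resulting read counts without normalization. The counting tool, annotation release and strand setting are not given in the sources used here. The labels and the paper's methods name different library kits. Rows with 10 values, 17835 of 53715, exceed the 8 named libraries by 2 unnamed columns and were not used, so totals cover part of each library. Gene length is that of the deposited table, and 26 of the 27 members have the same coordinates in GENCODE M21.

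Counts were filtered, normalized (TMM) and tested in edgeR 4.0.16 (R 4.3.3) with its quasi-likelihood test, and p-values were adjusted over all 9141 genes tested (Benjamini-Hochberg). Standard errors are the log2 fold change divided by the square root of F. DESeq2 1.42.0 was an alternative. The p-values set the difference between the groups against the spread between these libraries, estimated with information shared across genes. The fits were tested on simulated data in which 189 of 8988 tested genes changed by 2 log2 units. There edgeR called 158 of them in the right direction, and 12 unchanged genes. Far more genes, 3188 of 9141, were called in the real data, so the simulation could not test the scaling under such a change.

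Of the 27 members, 2 are counted but not reported by name here. Called members were given in full, and listed pathway genes were named if called at a mean of at least 1 CPM, with Itgb2 and Cd55 added after their values were seen. Members and lists were chosen with earlier results of these data known, and the adipocyte genes were added after the data were seen.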

Additional observations from a re-analysis of the deposited data

Results flagged for a closer look

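In 50 comparisons of the highest or lowest library with the others of its group of 4, 5 values stood far from the rest, where chance gives about 1 in 20. Control 1 had 11.3 CPM of Cfd, against at most 0.399 CPM in the other controls. Fgb was lower in control 1, at 1.68 CPM, than in the other controls, which lay between 2.35 and 2.44 CPM, and all were far below the cisplatin-treated kidneys. C1qbp was higher in control 5, at 170 CPM, against 103 CPM or less in the others. Proca1 was lowest in cisplatin 6, at 2.7 CPM. F11 had 0.0758 CPM in control 3, a single count, and 0 in the other controls.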

How the results depend on the processing

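Under 21 alternatives, between 7 and 11 members rose and 2 fell in each. The members Fgb, Plaur, C3, C4bp, C6, Plat, F2rl1, C4b and Proc kept direction and call wherever an alternative gave a value. Tested against a log2 fold change of 1, Masp2 and C5ar1 lost their calls (edgeR adjusted p = 0.236 and 0.415). Leaving out 1 library gave 7 to 8 rising and 2 falling members and a median log2 fold change of 0.27 to 0.92, lowest without control 3, 0.37 without cisplatin 1 and 0.41 without control 5. With no filter the members' median was 0.12 in DESeq2 and 0.18 in edgeR, below the 0.30 and 0.39 of all genes. It was 1.26 with total library size and 1.23 with a replicate block, beside 0.64 and 0.09 for all genes. Total library size gave 3174 rising and 803 falling genes, against 1754 and 1434.

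Some members that were not called changed sign. With total library size Plau was 0.38, C1qbp 0.53, C3ar1 0.16, Proca1 0.14 and Fgl1 0.50. C1qbp was 0.05 with the upper quartile, 0.02 with at least 10 counts in every library and 0.48 without cisplatin 1 and 3, where C1ra was -0.38 and C1qb -0.09. Fgl1 was 0.30 and F2 -1.22 in the first library set alone, and F2 was -0.40 with the set as a covariate. Leaving out 1 library gave -0.24 to 0.21 for C1qbp, -0.05 to 0.44 for C1ra, -0.01 to 0.30 for C1qb, -0.35 to 0.07 for Fgl1 and -0.73 to 0.55 for F2. The causes were not tested.

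Numbers 1 and 3 occur in both groups, but the mice differ and nothing in the labels pairs them. Same-numbered libraries deviated together with r = 0.25 and 0.28 across genes, and differently numbered ones of the first set with 0.15 to 0.36. With the replicate block, which compares control 1 and 3 with cisplatin 1 and 3, 11 members rose and 2 fell, beside 18.7% and 15.4% of all genes. Masp1 (1.23, adjusted p = 0.011 from edgeR) was among those that rose, and Plau was 0.10, Fgl1 0.63 and F2 -0.27. Each other library has a replicate number of its own and does not inform this comparison, so its calls rest on few libraries.

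Genes in rows with 10 values could not be read, and members under about 0.266 CPM are under the depth of these libraries.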
